A study of Mus musculus with 45 samples.

Results

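Krt8, Krt18, Krt19, Cdh1, Cdh2, Epcam, Vim, Snai1 and Zeb2 are the keratins of simple epithelia, the E- and N-cadherins, an epithelial adhesion molecule, the mesenchymal filament vimentin and a pair of transcription factors that act on E-cadherin. They were taken by their symbols from tables of expression that hold 33924 genes each; all 9 of the 9 symbols were found in both tables. The study deleted the mouse long noncoding RNA gene 5430416N02Rik in embryonic stem cells of the D3 line (strain 129), grown without feeder cells in medium with LIF, and sequenced ribosome-depleted total RNA. The ΔG allele has GFP-IRES-Puro in place of the gene body. The ΔPG allele lacks the promoter as well and carries PGK-puro instead. Each deletion was sequenced in heterozygous and in homozygous cells, and each of these as ES cells given DMSO or as cells given retinoic acid (RA) at 2 µM, for 48 h. That makes 8 groups of 3 samples, 24 samples in all, 12 in the ΔG table and 12 in the ΔPG table.

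All 8 groups share the D3 background, and all carry at least one deleted allele with its puromycin cassette. The heterozygous cells are therefore the reference for the homozygous cells, and wild-type cells were not used here. The study made independent clones of each genotype, but the RNA labels name no clone, so clone and genotype cannot be told apart. The values are the authors' regularized log (rlog) values, a log2 scale on which counts of low genes are drawn toward the gene's mean, so that a difference understates the fold of a weakly expressed gene. Read depth is not given in the tables and is unknown. The ΔG and ΔPG tables were normalized separately, so every test stayed within 1 table.

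Embryonic stem cells are an epithelium-like cell type held together by E-cadherin, and RA drives them out of pluripotency toward differentiated fates that include endoderm-like and neural cells. Keratin 8 pairs with keratin 18 or keratin 19 to build the filaments of simple epithelia, among the earliest intermediate filaments of the embryo, whereas vimentin builds those of mesenchymal and many cultured cells. Snai1 and Zeb2 encode repressors of the E-cadherin gene, and the exchange of E- for N-cadherin is a textbook sign of an epithelial-to-mesenchymal transition (EMT).

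The labels were checked first with the deleted gene itself. In the ΔG table, 5430416N02Rik (chromosome 5, 100849861 to 100858535, minus strand, build NCBIM37) read 5.58, 5.54 and 5.50 in heterozygous ES samples, 2.63, 2.77 and 2.85 in homozygous ES samples, 5.64, 5.52 and 5.58 in heterozygous RA samples and 2.63, 3.08 and 2.77 in homozygous RA samples. The ΔPG values were 4.62, 4.58 and 4.59 in heterozygous ES samples, 2.23, 2.21 and 2.46 in homozygous ES samples, 4.24, 3.80 and 4.44 in heterozygous RA samples and 2.66, 2.12 and 2.28 in homozygous RA samples. Heterozygous and homozygous samples did not overlap in either table or treatment: group means were 5.54 ± 0.04 (SD) and 2.75 ± 0.11 in ΔG ES samples and 4.60 ± 0.02 and 2.30 ± 0.14 in ΔPG ES samples. The treatment was checked with 7 genes known to respond to RA, and 7 of 7 were higher in each of the RA comparisons, with median log2 differences of 3.18, 3.36, 2.81 and 3.25 (ΔG heterozygous, ΔG homozygous, ΔPG heterozygous, ΔPG homozygous). Cyp26a1, the enzyme that clears RA, rose by 5.88, 5.54, 4.60 and 4.57 on the log2 scale in the same order. Of the 13 pluripotency markers, 13, 13, 13 and 12 fell, with median log2 differences of -3.81, -3.68, -3.26 and -3.36.

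The RA comparisons ask which genes differ between treated and untreated cells of 1 genotype. The 3 keratins, N-cadherin and Zeb2 rose steeply in all 4, vimentin rose by less than 1 log2 unit, and E-cadherin was lower by less than 1 log2 unit. A gene was called when limma, fitted to every gene that varied in the table, gave a Benjamini-Hochberg adjusted p under 0.1 and a log2 difference over 0.5 in size; 22048 genes were tested in the ΔG table and 21979 in the ΔPG table. In ΔG heterozygous cells 8 of the 9 members were called, where 29.5% of all genes tested were, with 7 higher (all genes 17.7%) and 1 lower (all genes 11.7%). All 9 members had a mean rlog of at least 3, as did 11997 genes in the ΔG and 11904 in the ΔPG table. Of those genes, 3059, 3091, 3177 and 2814 were higher and 2397, 2478, 2705 and 2253 lower (ΔG heterozygous, ΔG homozygous, ΔPG heterozygous, ΔPG homozygous). The shares of all genes, here and below, also take in genes under that mean, which were called less often. In ΔG homozygous cells 7 were called (all genes 29.2%), with 7 higher (all genes 17.0%) and 0 lower (all genes 12.1%); 9 of 9 had an unadjusted limma p under 0.05 (all genes 53.0%). In ΔPG heterozygous cells 6 were called (all genes 31.6%), with 6 higher (all genes 18.0%) and 0 lower (all genes 13.6%); 9 of 9 had an unadjusted limma p under 0.05 (all genes 55.7%). In ΔPG homozygous cells 6 were called (all genes 27.8%), with 6 higher (all genes 16.5%) and 0 lower (all genes 11.3%); 8 of 9 had an unadjusted limma p under 0.05 (all genes 51.6%). An exact two-sided permutation test of 3 against 3 samples cannot go below 0.1, so for single genes the overlap of the groups is described instead. Bulk RNA cannot tell a change in the number of cells that express a gene from a change in RNA per cell.

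Krt8 encodes the type II keratin of simple epithelia. In the ΔG table its rlog values were 7.03, 6.99 and 7.06 in heterozygous ES samples, 7.37, 7.04 and 6.98 in homozygous ES samples, 10.90, 10.86 and 10.98 in heterozygous RA samples and 11.23, 11.19 and 11.24 in homozygous RA samples. In the ΔPG table they were 8.19, 8.11 and 7.97 in heterozygous ES samples, 7.73, 7.65 and 7.81 in homozygous ES samples, 11.21, 11.24 and 11.22 in heterozygous RA samples and 10.87, 10.97 and 10.98 in homozygous RA samples. Every RA sample lay above every ES sample of its table, and the ΔPG ES samples had the higher ES values of the separately scaled tables. The rise was 3.89 ± 0.05 (SE, log2) in ΔG heterozygous cells with an adjusted p of 4.40e-15, and 4.09 ± 0.07 in ΔG homozygous cells with an adjusted p of 9.87e-18. In ΔPG cells it was 3.13 ± 0.05 in heterozygous (adjusted p 9.39e-09) and 3.21 ± 0.05 in homozygous samples (adjusted p 2.25e-12).

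Krt18 encodes the type I partner of keratin 8 and had the steepest rise of the 9 members in each of the 4 RA comparisons. Its rlog values in the ΔG table were 5.88, 5.77 and 5.62 in heterozygous ES samples, 5.60, 5.58 and 5.69 in homozygous ES samples, 10.74, 10.73 and 10.85 in heterozygous RA samples and 11.05, 11.07 and 11.06 in homozygous RA samples. Those of ΔPG samples were 6.50, 6.59 and 6.56 in heterozygous ES samples, 6.49, 6.52 and 6.54 in homozygous ES samples, 10.87, 10.90 and 10.89 in heterozygous RA samples and 10.60, 10.69 and 10.71 in homozygous RA samples. ES and RA samples were separated by more than 4 log2 units in both tables. The differences were 5.01 ± 0.07 and 5.44 ± 0.06 (log2, SE) in ΔG heterozygous and homozygous cells, with adjusted p of 1.16e-14 and 9.16e-21. In ΔPG cells they were 4.33 ± 0.03 and 4.15 ± 0.05, with adjusted p of 4.23e-10 and 2.37e-13. Because Krt18 rose more than Krt8, the balance of the pair shifted. Per exonic length, the log2 level of Krt8 minus that of Krt18 was 0.90 ± 0.15 (SD) in ΔG heterozygous ES samples and -0.22 ± 0.02 after RA. The ΔG homozygous samples gave 1.14 ± 0.24 and -0.21 ± 0.04. In ΔPG cells this level difference went from 1.17 ± 0.14 to -0.03 ± 0.00 in heterozygous and from 0.84 ± 0.08 to -0.09 ± 0.01 in homozygous samples.

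Krt19, the small type I keratin of ducts and embryonic epithelia, is the member whose values differed most between genotypes. In the ΔG table it read 4.97, 4.67 and 4.76 in heterozygous ES samples, 4.08, 3.78 and 4.10 in homozygous ES samples, 7.81, 7.75 and 7.84 in heterozygous RA samples and 8.24, 8.26 and 8.30 in homozygous RA samples. In the ΔPG table it read 4.49, 4.42 and 4.58 in heterozygous ES samples, 4.55, 4.32 and 4.50 in homozygous ES samples, 8.35, 8.20 and 8.34 in heterozygous RA samples and 7.87, 7.87 and 7.82 in homozygous RA samples. In the ΔG table the homozygous samples were the lowest of all in ES cells and the highest of all after RA, whereas in the ΔPG table the ES groups overlapped and the homozygous RA samples lay below the heterozygous ones. The RA differences were 3.00 ± 0.10 and 4.28 ± 0.11 (log2, SE) in ΔG heterozygous and homozygous cells, with adjusted p of 1.60e-11 and 5.58e-16. In ΔPG cells they were 3.80 ± 0.07 and 3.40 ± 0.09, with adjusted p of 1.15e-08 and 1.30e-10.

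**Figure D1:**
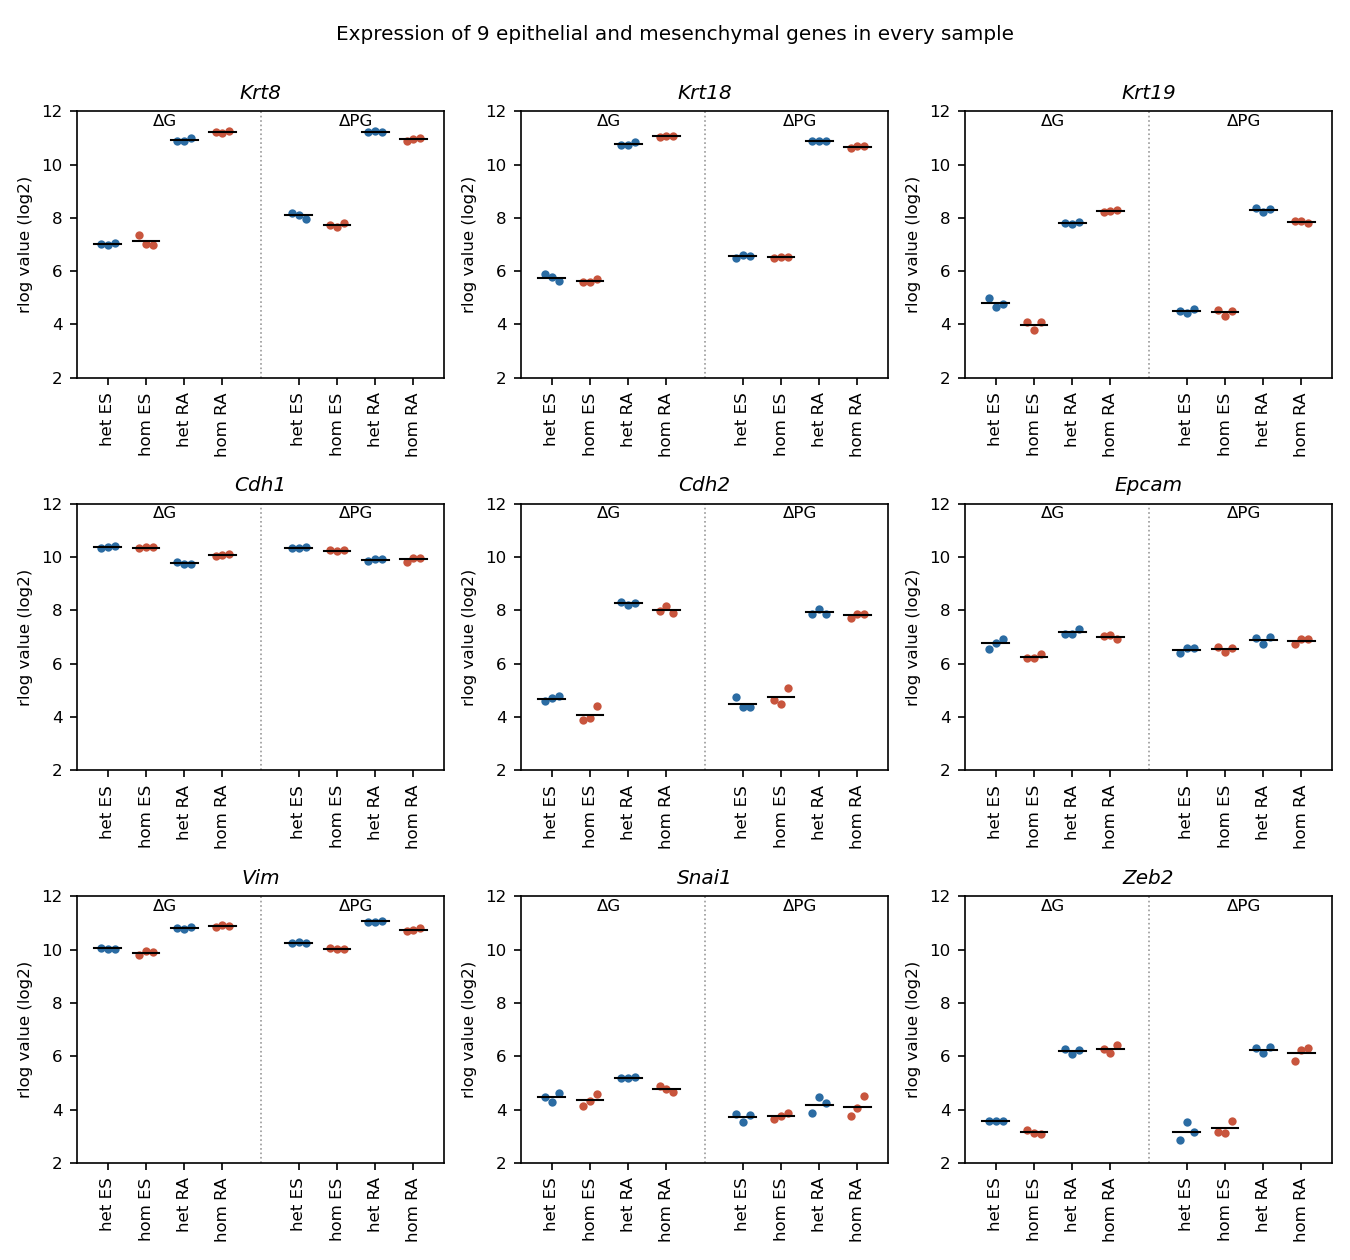
Deposited rlog values (log2) of the 9 members in each of the 24 samples, by genotype and treatment, with each group's mean; the ΔG and ΔPG tables are scaled separately. Krt18 runs from 5.58 in its lowest ΔG ES sample to 11.07 in its highest ΔG RA sample, while Cdh1 stays between 9.74 and 10.43 in the ΔG table.

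Cdh1 encodes E-cadherin, the adhesion molecule of epithelial and pluripotent cells. Its ΔG rlog values were 10.34, 10.39 and 10.43 in heterozygous ES samples, 10.33, 10.36 and 10.38 in homozygous ES samples, 9.82, 9.75 and 9.74 in heterozygous RA samples and 10.05, 10.06 and 10.12 in homozygous RA samples. Its ΔPG rlog values were 10.33, 10.34 and 10.39 in heterozygous ES samples, 10.26, 10.22 and 10.26 in homozygous ES samples, 9.85, 9.92 and 9.93 in heterozygous RA samples and 9.82, 9.97 and 9.96 in homozygous RA samples. Every RA sample lay below every ES sample of its table, yet the whole range was under 0.70 log2 units in both. Only ΔG heterozygous cells passed both limits, where Cdh1 fell by 0.61 ± 0.04 (SE, log2; adjusted p 2.28e-08). The difference was -0.28 ± 0.03 in ΔG homozygous, -0.45 ± 0.03 in ΔPG heterozygous and -0.33 ± 0.04 in ΔPG homozygous cells, each past the adjusted p limit and short of the limit on size. Quantile normalization brought the 4 differences to -0.37, -0.03, -0.20 and -0.09, and the ΔG heterozygous call was lost.

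Cdh2 encodes N-cadherin, found on neural, mesodermal and mesenchymal cells. The ΔG rlog values were 4.58, 4.73 and 4.77 in heterozygous ES samples, 3.90, 3.96 and 4.41 in homozygous ES samples, 8.31, 8.20 and 8.29 in heterozygous RA samples and 7.98, 8.17 and 7.90 in homozygous RA samples. The ΔPG rlog values were 4.73, 4.37 and 4.36 in heterozygous ES samples, 4.65, 4.50 and 5.10 in homozygous ES samples, 7.88, 8.06 and 7.87 in heterozygous RA samples and 7.73, 7.87 and 7.87 in homozygous RA samples. All RA samples lay above all ES samples in both tables. The RA differences were 3.57 ± 0.09 (log2, SE; adjusted p 1.12e-12) in ΔG heterozygous and 3.93 ± 0.13 (adjusted p 2.64e-14) in ΔG homozygous cells. In ΔPG cells they were 3.45 ± 0.11 (adjusted p 2.46e-07) and 3.07 ± 0.14 (adjusted p 7.46e-09). Per exonic length, the log2 level of Cdh1 minus that of Cdh2 was 6.51 ± 0.06 (SD) in ΔG heterozygous ES samples and 2.32 ± 0.05 after RA, so Cdh1 still had the higher level. The same level difference after RA was 2.88 ± 0.16 in ΔG homozygous, 2.78 ± 0.10 in ΔPG heterozygous and 2.91 ± 0.01 in ΔPG homozygous samples.

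Epcam encodes an adhesion molecule of epithelial and pluripotent cells. Its rlog values ranged from 6.22 to 7.31 in the ΔG table and from 6.40 to 7.00 in the ΔPG table, with every RA sample above every ES sample of its own genotype. It rose in ΔG homozygous cells by 0.75 ± 0.09 (log2, SE; adjusted p 1.29e-06). The other RA differences were 0.42 ± 0.10 in ΔG heterozygous, 0.38 ± 0.09 in ΔPG heterozygous and 0.30 ± 0.08 in ΔPG homozygous cells, past the adjusted p limit and short of the limit on size. Without ΔG heterozygous ES replicate 3 the first of these was 0.50 and called, and with the trend with exonic GC content removed the second was 0.52 and called.

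Vim encodes vimentin and was already abundant in ES cells. In the ΔG table it read 10.08, 10.04 and 10.03 in heterozygous ES samples, 9.81, 9.96 and 9.91 in homozygous ES samples, 10.80, 10.78 and 10.84 in heterozygous RA samples and 10.86, 10.93 and 10.88 in homozygous RA samples. ΔPG samples read 10.24, 10.29 and 10.26 in heterozygous ES samples, 10.06, 10.03 and 10.02 in homozygous ES samples, 11.05, 11.05 and 11.07 in heterozygous RA samples and 10.71, 10.74 and 10.80 in homozygous RA samples. All RA samples were above all ES samples of their table. Vim rose by 0.76 ± 0.03 and 0.99 ± 0.04 (log2, SE) in ΔG heterozygous and homozygous cells, with adjusted p of 5.80e-10 and 2.92e-13. In ΔPG cells it rose by 0.79 ± 0.02 and 0.71 ± 0.03, with adjusted p of 5.37e-08 and 8.55e-09. Keratin RNA overtook it: per exonic length, the log2 level of Krt18 minus that of Vim was -3.56 ± 0.11 (SD) in ΔG heterozygous ES samples and 0.70 ± 0.04 after RA. In ΔPG heterozygous samples it was -2.98 ± 0.02 and 0.56 ± 0.02.

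The repressors of E-cadherin did not move alike. Zeb2, a zinc-finger homeobox repressor also known from neural development, read 3.58, 3.59 and 3.55 in heterozygous ES samples, 3.23, 3.12 and 3.08 in homozygous ES samples, 6.27, 6.09 and 6.22 in heterozygous RA samples and 6.29, 6.12 and 6.41 in homozygous RA samples in the ΔG table. In the ΔPG table it read 2.87, 3.52 and 3.15 in heterozygous ES samples, 3.18, 3.14 and 3.59 in homozygous ES samples, 6.30, 6.13 and 6.33 in heterozygous RA samples and 5.84, 6.25 and 6.30 in homozygous RA samples. It was among the lowest members in ES cells, and every RA sample was above every ES sample by more than 2 log2 units. The rises were 2.62 ± 0.11 and 3.13 ± 0.13 (log2, SE) in ΔG heterozygous and homozygous cells (adjusted p 1.52e-10 and 3.93e-13), and 3.08 ± 0.17 and 2.83 ± 0.17 in ΔPG cells (adjusted p 3.05e-06 and 8.48e-08).

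Snai1, the zinc-finger repressor that acts early in EMT, read 4.47, 4.29 and 4.61 in heterozygous ES samples, 4.13, 4.34 and 4.58 in homozygous ES samples, 5.17, 5.20 and 5.22 in heterozygous RA samples and 4.87, 4.78 and 4.66 in homozygous RA samples in the ΔG table. Its ΔPG values were 3.84, 3.55 and 3.80 in heterozygous ES samples, 3.66, 3.76 and 3.86 in homozygous ES samples, 3.87, 4.46 and 4.24 in heterozygous RA samples and 3.76, 4.08 and 4.50 in homozygous RA samples. RA samples were above ES samples of the same genotype except in ΔPG homozygous cells, where the groups overlapped. It was called in ΔG heterozygous cells alone, with a log2 difference of 0.74 ± 0.11 (SE; adjusted p 9.57e-05); quantile normalization gave 0.38 and no call. The other differences were 0.42 ± 0.14 in ΔG homozygous, 0.46 ± 0.17 in ΔPG heterozygous and 0.35 ± 0.19 in ΔPG homozygous cells, the last turning to -0.07 under quantile normalization. Single samples decided these calls: Snai1 was called at 0.53 without ΔG homozygous ES replicate 3, at 0.52 without ΔPG heterozygous ES replicate 1, at 0.62 without ΔPG heterozygous RA replicate 1 and at 0.53 without ΔPG homozygous RA replicate 1. With the GC trend removed it was also called in ΔPG heterozygous cells, at 0.73.

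**Figure D2:**
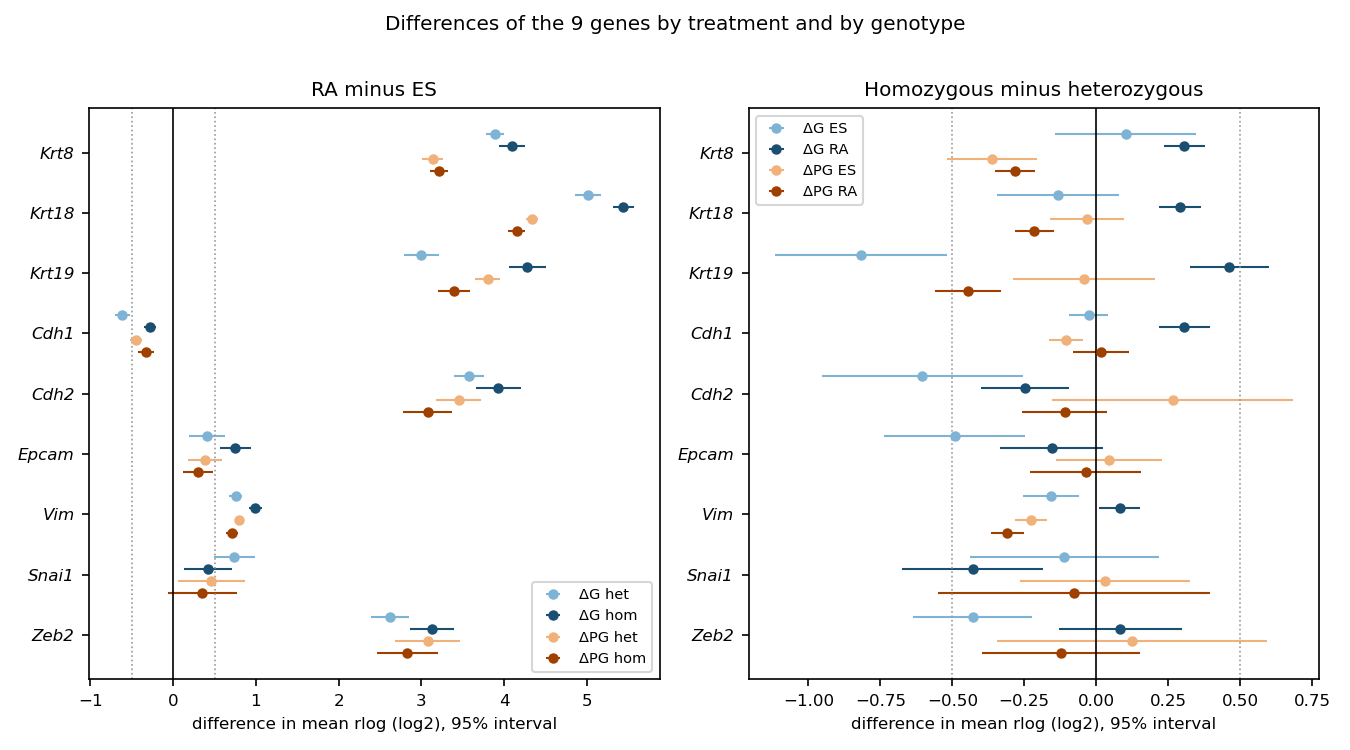
Differences in mean rlog (log2) of the 9 members with 95% intervals, RA minus ES on the left and homozygous minus heterozygous on the right, with dotted lines at the limit of 0.5. RA differences of Krt8, Krt18, Krt19 and Cdh2 lie between 3.00 and 5.44, while the largest genotype difference is -0.82, for Krt19 in ΔG ES cells.

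Levels of different genes were ordered per exonic length (rlog minus log2 of exonic kilobases). In ΔG heterozygous ES samples the order was Vim at 8.83 ± 0.03 (SD), Cdh1 at 8.19 ± 0.04, Krt8 at 6.18 ± 0.03, Epcam at 5.73 ± 0.19, Krt18 at 5.27 ± 0.13, Krt19 at 3.91 ± 0.16, Snai1 at 3.76 ± 0.16, Cdh2 at 1.68 ± 0.10 and Zeb2 at -0.37 ± 0.02. The neighbours Krt19 and Snai1 overlapped there. In ΔG homozygous ES samples Snai1 (3.65 ± 0.22) came before Krt19 (3.09 ± 0.18), and Epcam and Krt18 overlapped. In both ΔPG ES groups Krt18 preceded Epcam, and no neighbours overlapped. After RA all 4 groups had 1 order of mean levels: Krt18, Krt8, Vim, Cdh1, Krt19, Epcam, Cdh2, Snai1 and Zeb2. Krt18 and Krt8 stood at 10.28 ± 0.07 and 10.06 ± 0.06 in ΔG heterozygous RA samples, and they overlapped in both ΔPG RA groups, as no other neighbours did. Genes with near-identical copies elsewhere in the genome have less certain levels, since reads may be shared. Krt8 has 1 such copy (97.9% identity over up to 1734 bases), Krt18 has 1 (90.3%, 1379 bases) and Cdh2 has 1 (99.5%, 1641 bases), while the other 6 members have none at 90% identity over 300 bases.

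The comparison of ΔG homozygous with heterozygous ES cells asks what loss of the second copy of the gene body goes with before treatment. Krt19 and Cdh2 fell, and no member rose. Of the 9 members 2 were called (all genes 0.984%), with 2 lower (all genes 0.630%) and 0 higher (all genes 0.354%). Among the 11997 genes with mean rlog of at least 3, 135 were lower and 67 higher. Of the members, 5 had an unadjusted limma p under 0.05 (all genes 15.4%) and 4 passed the adjusted p limit (all genes 5.22%). The log2 difference of Krt19 was -0.82 ± 0.13 (SE; adjusted p 0.0209) and that of Cdh2 -0.60 ± 0.15 (adjusted p 0.0914). Epcam (-0.49 ± 0.10, adjusted p 0.0584) and Zeb2 (-0.43 ± 0.09, adjusted p 0.0539) passed the adjusted p limit alone. Krt8, Krt18, Cdh1, Vim and Snai1 differed by 0.10, -0.13, -0.03, -0.16 and -0.11; the Krt8 value rests on homozygous ES replicate 1, without which it was -0.02. The Cdh2 call was lost without heterozygous ES replicate 1 (-0.66, adjusted p 0.164), 2 (-0.59, 0.189) or 3 (-0.57, 0.213) and without homozygous ES replicate 1 (-0.51, 0.253) or 2 (-0.54, 0.215), and Epcam was called at -0.59 without heterozygous ES replicate 1. Quantile normalization, and limma without a variance trend, also ended the Cdh2 call, and with replicate number as a block both calls were lost (adjusted p 0.119 for Krt19 and 0.200 for Cdh2).

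After RA the same genotypes were compared again, with treated samples alone. All 3 keratins and Cdh1 were higher in homozygous cells, and Cdh2 and Snai1 lower, by amounts short of the limit on size. Of the 9 members 0 were called by limma (all genes 2.14%), with 0 higher (all genes 0.676%) and 0 lower (all genes 1.46%). At an unadjusted p under 0.05 there were 7 (all genes 19.6%), and 6 passed the adjusted p limit (2433 of 22048 over all genes). Those 6 log2 differences were 0.31 ± 0.03 (SE) for Krt8, 0.29 ± 0.04 for Krt18, 0.46 ± 0.07 for Krt19, 0.31 ± 0.04 for Cdh1, -0.25 ± 0.07 for Cdh2 and -0.43 ± 0.12 for Snai1. Their adjusted p values were 3.67e-06, 1.12e-05, 6.63e-05, 5.96e-05, 0.0410 and 0.0264. Epcam, Vim and Zeb2 differed by -0.15, 0.08 and 0.08.

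Whether the RA response itself differed between ΔG genotypes was tested with the interaction, the RA difference in homozygous minus that in heterozygous cells, over all 12 samples. It uses the same samples as the comparisons of genotypes and treatments, so it is no separate evidence. The response of Krt19 and of Zeb2 was larger in homozygous cells. Of the 9 members 2 were called (all genes 2.38%), with 2 higher (all genes 1.19%) and 0 lower (all genes 1.18%). Among the 11997 genes with mean rlog of at least 3, 238 were higher and 202 lower. Of the members, 8 had an unadjusted limma p under 0.05 (all genes 14.7%) and 5 passed the adjusted p limit (all genes 5.28%). The difference of differences was 1.28 ± 0.15 (log2, SE; adjusted p 1.38e-06) for Krt19 and 0.51 ± 0.17 (adjusted p 0.0915) for Zeb2. Krt18 (0.42 ± 0.09), Cdh1 (0.33 ± 0.05) and Vim (0.24 ± 0.05) passed the adjusted p limit alone. For Krt19, -0.82 of the log2 difference lay between the ES groups and 0.46 between the RA groups. The Zeb2 call was lost in 10 of the 12 fits that left out 1 sample, with values from 0.45 to 0.55, and was held only without homozygous ES replicate 1 or homozygous RA replicate 2. It was also lost with replicate number as a block (adjusted p 0.102). Cdh2 was called at 0.52 without homozygous ES replicate 3.

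In ΔPG ES cells the homozygous cells lack both promoter copies as well. No member passed both limits there, and the members passing the adjusted p limit were no larger a share than that of all genes. Of the 9 members 0 were called by limma (all genes 13.2%), with 0 higher (all genes 6.87%) and 0 lower (all genes 6.29%). Among the 11904 genes with mean rlog of at least 3, 1442 were higher and 1333 lower. At an unadjusted p under 0.05 there were 3 (all genes 38.4%), and 3 passed the adjusted p limit (all genes 36.1%). Those were Krt8 at -0.36 ± 0.07 (log2, SE; adjusted p 0.00395), Vim at -0.23 ± 0.02 (adjusted p 0.000205) and Cdh1 at -0.10 ± 0.03 (adjusted p 0.0138). This comparison carries a trend with base composition. Over 11904 genes, which are not independent replicates, the log2 difference had Pearson r = -0.705 and Spearman rho = -0.735 with exonic GC content, and the 1619 genes with 55 to 58% GC, the range of the keratins, had a median of -0.35. With that trend removed, the log2 differences of Krt8, Vim and Cdh1 were 0.01 ± 0.06, 0.01 ± 0.03 and 0.01 ± 0.03 (SE). These 3 were smaller than their SE and no longer passed the adjusted p limit. Krt18 and Krt19 each had 0.31 (as fitted, -0.03 and -0.04) and now passed that limit alone (limma adjusted p 0.00308 and 0.0681). Zeb2 had -0.34 (as fitted, 0.12; adjusted p 0.105). The sign of all 6 values changed, for Krt8, Vim and Cdh1 only by values within their SE. The exonic GC content is 56.9% for Krt8, 56.4% for Krt18, 56.5% for Krt19, 53.7% for Vim, 51.1% for Cdh1 and 41.7% for Zeb2. What gave the trend was not tested.

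After RA the ΔPG homozygous cells had lower keratin and vimentin values than the heterozygous cells. Of the 9 members 0 were called by limma (all genes 0.846%), with 0 higher (all genes 0.241%) and 0 lower (all genes 0.605%). At an unadjusted p under 0.05 there were 4 (all genes 14.0%), and 4 passed the adjusted p limit (all genes 4.58%). The 4 log2 differences were -0.28 ± 0.03 (SE) for Krt8, -0.21 ± 0.03 for Krt18, -0.44 ± 0.05 for Krt19 and -0.31 ± 0.03 for Vim, with adjusted p of 0.000745, 0.00374, 0.00103 and 0.000137. These 4 genes had the opposite sign in ΔG cells after RA (0.31, 0.29, 0.46 and 0.08), none of them called in either line, and the difference between the lines was not tested, since the tables were scaled apart. The GC trend was absent from this comparison (r = -0.00108), and the 4 values changed by less than 0.01 with it removed.

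The ΔPG interaction, over the same 12 samples, asks whether the RA response differed between ΔPG genotypes. The keratin 18 and 19 responses were smaller in homozygous cells, short of the limit on size. Of the 9 members 0 were called by limma (all genes 13.9%), with 0 higher (all genes 6.72%) and 0 lower (all genes 7.19%). At an unadjusted p under 0.05 there were 4 (all genes 33.0%), and 2 passed the adjusted p limit (all genes 29.1%). Krt18 (-0.18 ± 0.05, log2, SE; adjusted p 0.0228) and Krt19 (-0.40 ± 0.11; adjusted p 0.0124) passed the adjusted p limit alone. The GC trend of the ES samples enters here with r = 0.695 over 11904 genes, and with it removed 3 members were called: Krt18 at -0.53, Krt19 at -0.75 and Snai1 at -0.57. Krt8 went from 0.08 to -0.28 in that fit. Cdh2 was called at -0.50 without homozygous ES replicate 2.

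The first list read beside the members held junction genes of simple epithelia: claudins, desmosomal and tight-junction proteins and the membrane proteases that trim them. Of 35 tested, 20, 21, 19 and 21 rose with RA and 4, 1, 3 and 1 fell (ΔG heterozygous, ΔG homozygous, ΔPG heterozygous, ΔPG homozygous). Their median log2 differences were 0.72, 0.95, 0.56 and 0.66, where all genes tested had 0.04, 0.02, 0.01 and 0.01. Cldn6, a claudin of embryonic epithelia, rose by 3.79, 4.14, 3.50 and 3.41, and desmoplakin (Dsp), which ties keratin filaments to desmosomes, by 2.93, 3.73, 2.78 and 2.76. St14, the protease matriptase, had log2 differences of -2.49, -2.11, -1.34 and -1.44. For this and the other lists, the shares of all genes that rose were 17.7%, 17.0%, 18.0% and 16.5%, and those that fell 11.7%, 12.1%, 13.6% and 11.3%, in the same order.

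Among 24 transcription and splicing regulators of EMT, 10, 12, 10 and 12 rose with RA and 3, 3, 3 and 3 fell, with median log2 differences of 0.45, 0.41, 0.41 and 0.44. Sox4 rose by 3.86, 4.10, 2.66 and 2.96 and Foxc2 by 1.71, 1.71, 2.42 and 2.23. Esrp1, a splicing factor of epithelial cells, had log2 differences of 1.51, 1.52, 1.78 and 1.76. The epithelial factor Grhl3 had log2 differences of -2.55, -1.68, -2.05 and -1.98 and Elf3 of -2.06, -1.80, -1.83 and -1.79. Klf5, also a factor of pluripotent cells, had -1.34, -1.26, -0.72 and -1.40, and these 3 were the genes that fell.

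Of 33 mesenchymal effectors, 24, 26, 27 and 24 rose and 1, 1, 2 and 2 fell, with log2 medians between 1.33 and 1.56. Tagln, a smooth-muscle actin-binding protein, rose by 5.00, 5.02, 5.12 and 4.44, while fibronectin (Fn1) had differences of -1.34, -0.83, -0.71 and -0.89. Thy1 also fell in both ΔPG comparisons, by 0.67 and by 0.53. Of 24 other intermediate filaments, 8, 9, 8 and 8 rose and 3, 4, 7 and 3 fell, with medians of 0.24, 0.14, 0.06 and 0.05. Krt7, another keratin of simple epithelia, rose by 2.27, 3.04, 2.80 and 2.50 and peripherin (Prph) by 3.79, 4.43, 2.67 and 3.22, while the neurofilament gene Nefl had -2.19, -2.86, -2.17 and -2.23. Of 17 other classical cadherins tested, 7, 7, 6 and 5 rose and 1, 2, 2 and 2 fell, with medians of 0.29, 0.10, 0.08 and 0.06. Cdh6 rose by 2.98, 2.55, 2.87 and 2.48 and P-cadherin (Cdh3) by 2.08, 1.92, 1.84 and 1.93, while Cdh22 had -1.09, -0.99, -1.74 and -1.04.

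Between ΔG genotypes fewer genes of these lists were called. Of all genes, 0.354% were higher and 0.630% lower in ES cells, 0.676% and 1.46% after RA, and 1.19% and 1.18% had larger and smaller responses. In ES cells 3 of 35 junction genes fell (Lsr -0.75, Pkp2 -0.62 and Dsc2 -0.52, log2) with 0 higher, and the list median was -0.15 where all genes had -0.01. The mesenchymal list had 1 lower (Loxl2 -1.14, median -0.09) and the filament list 1 higher (Nefm 0.83, median 0.00). By limma 0 EMT regulators and 0 other cadherins were called, with 2 and 1 at an unadjusted p under 0.05 and medians of -0.06 and -0.01. After RA Cldn4 (0.70) and Krt7 (0.77) rose as the 1 junction and the 1 filament gene called, with list medians of 0.09 and 0.06 where all genes had 0.00. The EMT list had 1 higher (Grhl3 0.78) and 1 lower (Prrx1 -0.67), median -0.01. The mesenchymal list had 4 lower (Col1a2 -1.41 the furthest), median -0.04. Of the cadherins 1 rose (Cdh5 0.81) and 3 fell (Cdh11 -0.67, Cdh6 -0.63 and Cdh4 -0.56), median -0.14. In the ΔG interaction 6 of 35 junction genes had a larger response in homozygous cells and 0 a smaller one (Dsp 0.80, Lsr 0.76, Pkp2 0.68), with a median of 0.23 where all genes had -0.01. The counts of larger and smaller responses were 1 and 1 for EMT regulators, 3 and 3 for mesenchymal effectors, 2 and 2 for filaments and 1 and 2 for cadherins, with medians of 0.05, -0.01, -0.01 and -0.10.

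Between ΔPG genotypes, 6.87% of all genes were higher and 6.29% lower in ES cells, 0.241% and 0.605% after RA, and 6.72% and 7.19% had larger and smaller responses. In ES cells, 6 of 35 junction genes fell (Llgl2 -0.80, Pkp3 -0.71 and St14 -0.64 the furthest), as did 5 mesenchymal effectors (Col5a2 -1.14 the furthest) and 8 other filaments (Plec -0.98 and Lmnb2 -0.86), with 0 higher in each. The list medians were -0.18, 0.01 and -0.17 where all genes had 0.00. Of the 24 EMT regulators 1 rose (Hmga2 0.73) and 1 fell (Tcf3 -0.59), median 0.01. By limma 0 other cadherins were called, with 2 at an unadjusted p under 0.05 and a median of 0.01. The GC trend of that comparison is in these list values, and its part in them was not tested. After RA, where that trend was absent, 2 junction genes (St14 -0.74 and Perp -0.57), 5 mesenchymal effectors (Acta2 -1.16 the furthest) and 1 filament gene (Nefl -0.65) fell, with medians of -0.10, -0.12 and -0.07 where all genes had 0.01. By limma 0 EMT regulators and 0 other cadherins were called, with 4 and 2 at an unadjusted p under 0.05 and medians of -0.06 and 0.00. In the ΔPG interaction the counts of larger and smaller responses were 4 and 1 for junction genes, 1 and 2 for EMT regulators, 4 and 6 for mesenchymal effectors, 6 and 0 for filaments and 1 and 0 for cadherins. Their medians were 0.00, -0.04, -0.08, 0.18 and -0.01. The GC trend is in this interaction too (r = 0.695), and its part in these list counts and medians was not tested.

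Several cell types besides stem cells express these filaments and cadherins, so their markers were read in the same samples, and the shares of all genes called in each comparison, given above, apply to these lists too. Of 23 extraembryonic endoderm markers, 18, 18, 19 and 17 rose with RA and 1, 1, 1 and 2 fell, with median log2 differences of 2.52, 2.37, 2.46 and 2.07. The summed level of the list (sum of 2 to the power of rlog) was 5134 to 5269 in heterozygous ES, 5763 to 5858 in homozygous ES, 15164 to 15625 in heterozygous RA and 10128 to 10259 in homozygous RA samples in the ΔG table. In the ΔPG table it was 6552 to 6740 in heterozygous ES, 4628 to 4814 in homozygous ES, 12188 to 12395 in heterozygous RA and 7666 to 7873 in homozygous RA samples. In this and the other marker lists, the most abundant gene was taken by 2 to the power of rlog, without correction for exonic length. Here it was Apoe in all ES groups, Col4a1 in 3 of the 4 RA groups and Lamc1 in ΔPG homozygous RA samples. No marker was at 0. Apoe fell with RA (-2.04, -2.39, -2.89 and -2.14); Cubn, a receptor of absorptive endoderm, rose by 6.15, 4.97, 4.96 and 3.92. Between genotypes after RA, 6 of 23 were lower in ΔG homozygous cells (median -0.28) and 9 of 23 in ΔPG homozygous cells (median -0.46), with 0 higher in both. Cubn and Lama1 fell in both, by 1.15 and by 1.03 in ΔG cells and by 1.24 and by 0.95 in ΔPG cells. In ES cells 0 of 23 were called by limma in ΔG (3 at an unadjusted p under 0.05) and 1 rose and 3 fell in ΔPG cells; the interactions had 0 larger and 5 smaller responses in ΔG and 1 and 6 in ΔPG cells. The GC trend is in the ΔPG ES and interaction values of this and the other marker lists as well, and its part in them was not tested. A weaker trend runs through the ΔPG heterozygous RA comparison (r = -0.208), where the other RA comparisons had r of 0.110 and 0.135 (ΔG heterozygous and homozygous) and 0.121 (ΔPG homozygous). Its part in the RA values of any list, those above included, was not tested.

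Trophoblast cells also carry keratins 8, 18 and 19. Of the 11 trophoblast markers that varied, 5, 5, 5 and 5 rose with RA and 2, 1, 2 and 2 fell, with medians of 0.18, 0.38, -0.03 and 0.13; Tpbpa and Prl3d1 were at 0 in both tables. The summed level was 133 to 140 in heterozygous ES, 122 to 125 in homozygous ES, 149 to 158 in heterozygous RA and 210 to 224 in homozygous RA samples in the ΔG table. The ΔPG sums were 131 to 144 in heterozygous ES, 131 to 141 in homozygous ES, 184 to 187 in heterozygous RA and 175 to 179 in homozygous RA samples. The most abundant gene was Tcfap2c in all ES groups, which fell with RA (-2.22, -1.26, -1.47 and -1.52). After RA it was Gata3 in ΔG heterozygous and ΔPG homozygous samples and Krt7 in the other groups. After RA 4 of 11 rose in ΔG homozygous over heterozygous cells, among them Hand1 (0.81), Tcfap2c (0.81) and Esx1 (0.77), with 0 lower and a median of 0.24. The ΔG interaction had 5 larger and 0 smaller responses (median 0.40). By limma 0 were called in ΔG ES cells (2 at an unadjusted p under 0.05) and 0 in each of the ΔPG genotype comparisons, with 0 in ES cells, 2 after RA and 1 in the interaction at an unadjusted p under 0.05. The summed trophoblast level after RA was higher in ΔG homozygous samples, as were the values of Krt19, and the part of these markers in it was not tested. Krt7 is on both the trophoblast and the filament list, Nes on the filament and neural lists, and Cdh11 on the mesenchymal and cadherin lists.

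**Figure D3:**
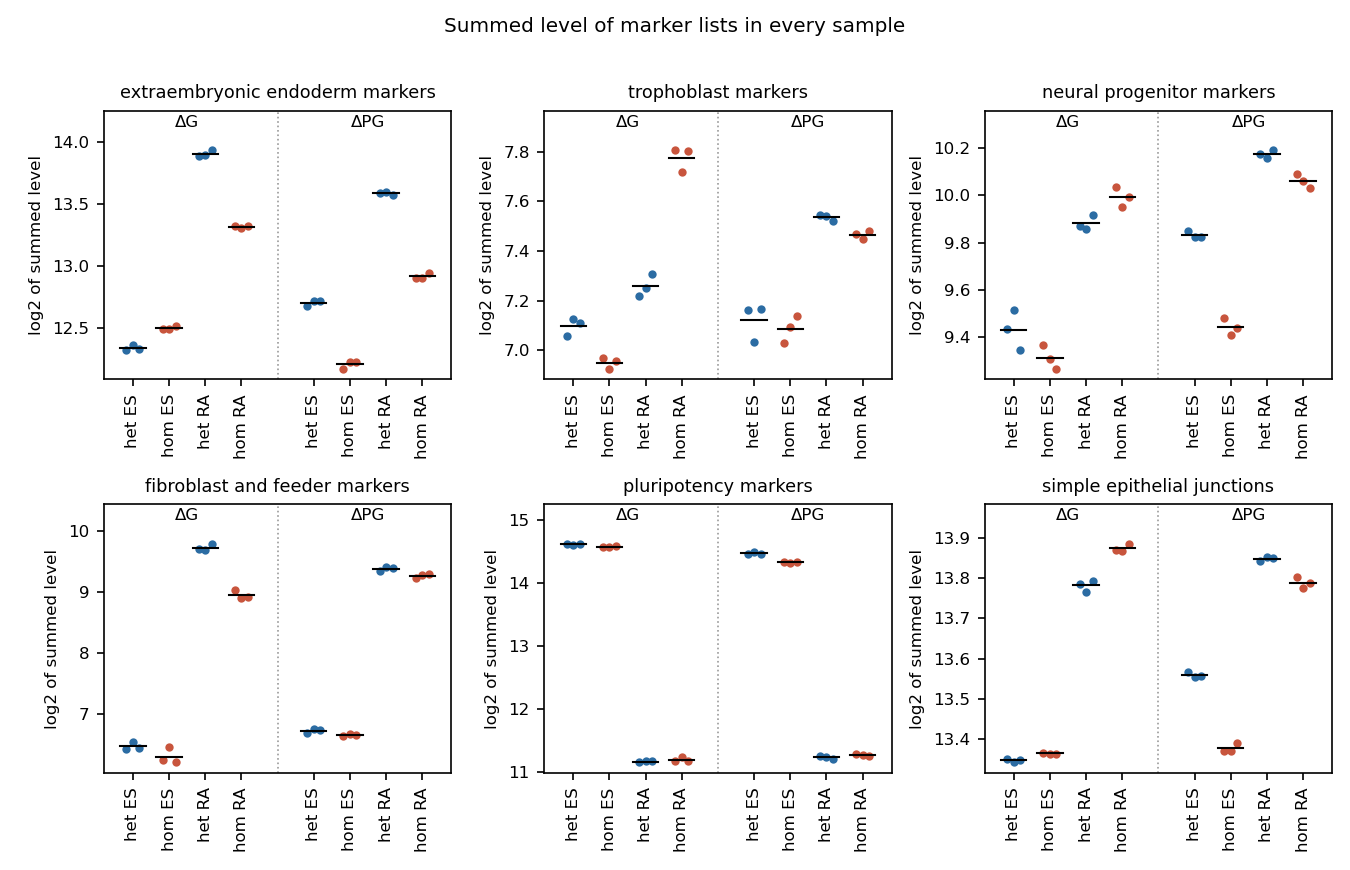
Log2 of the summed level of 5 marker lists and the junction list in each of the 24 samples, by genotype and treatment, for the separately scaled ΔG and ΔPG tables. After RA the trophoblast sum is 7.72 to 7.81 in ΔG homozygous and 7.22 to 7.31 in ΔG heterozygous samples on this log2 axis.

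Of the 13 neural progenitor markers that varied, 5, 6, 6 and 6 rose with RA and 2, 2, 2 and 2 fell, with medians of 0.27, 0.40, 0.38 and 0.47. Olig2 was at 0, and Sox1 has no entry in the tables. Their summed level was 651 to 731 in heterozygous ES, 617 to 661 in homozygous ES, 929 to 966 in heterozygous RA and 991 to 1048 in homozygous RA samples in the ΔG table. Nes was the most abundant in all groups but the ΔG ES groups, where it was Ncam1 in heterozygous and Tubb3 in homozygous samples. ΔPG samples had 906 to 924 in heterozygous ES, 681 to 714 in homozygous ES, 1143 to 1168 in heterozygous RA and 1046 to 1089 in homozygous RA samples. Between genotypes 1 fell in ΔG ES cells, 1 rose and 1 fell in ΔG cells after RA, 2 fell in ΔPG ES cells, and 0 were called by limma in ΔPG cells after RA (3 at an unadjusted p under 0.05). The interactions had 1 larger response in ΔG cells and 1 larger and 1 smaller in ΔPG cells. Pax6, a neural and eye regulator, was among the genes that rose with RA, by 2.86, 2.31, 2.60 and 2.48. Those values were far above the list medians of 0.27, 0.40, 0.38 and 0.47, and 2 of the 13 fell in each RA comparison.

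The cells were grown without feeders, and of the 10 fibroblast and feeder markers that varied 8, 6, 6 and 8 rose with RA and 0, 0, 1 and 1 fell, with medians of 0.99, 1.06, 1.17 and 1.21. Their summed level was 85.2 to 92.7 in heterozygous ES, 73.9 to 87.2 in homozygous ES, 825 to 888 in heterozygous RA and 478 to 526 in homozygous RA samples in the ΔG table, with Fap at 0. Pdgfrb was the most abundant in all ES groups, Col3a1 in ΔPG heterozygous RA samples and Col1a2 in the other RA groups. Sums in ΔPG samples were 103 to 108 in heterozygous ES, 99.5 to 102 in homozygous ES, 651 to 678 in heterozygous RA and 602 to 626 in homozygous RA samples. Col1a2, Col3a1 and Thy1 are also on the mesenchymal list. Col1a2 fell by 1.41 in ΔG homozygous against heterozygous cells after RA, and Col3a1 by 0.67 in ΔPG cells, each the 1 gene of the list called there; 0 were called by limma in ES cells of either line, with 0 at an unadjusted p under 0.05. The interactions had 1 smaller response in ΔG cells and 1 larger and 1 smaller in ΔPG cells. The pluripotency sum, with none at 0 and Dppa5a the most abundant in all groups but ΔG heterozygous ES (Tcfcp2l1), was 24985 to 25249 in heterozygous ES, 24234 to 24543 in homozygous ES, 2282 to 2305 in heterozygous RA and 2301 to 2404 in homozygous RA samples in the ΔG table. The ΔPG sums were 22554 to 23026 in heterozygous ES, 20450 to 20714 in homozygous ES, 2371 to 2442 in heterozygous RA and 2447 to 2490 in homozygous RA samples. Between genotypes 1 pluripotency gene fell in each of ΔG after RA (Fbxo15 -0.70), ΔPG ES (Pou5f1 -0.52) and ΔPG after RA (Klf4 -0.61), and 0 were called by limma in ΔG ES cells (6 at an unadjusted p under 0.05). The ΔG interaction had 0 called by limma (6 at an unadjusted p under 0.05) and the ΔPG interaction 1 larger and 1 smaller response. Of the RA check genes, 0 were called by limma in ΔG ES cells, ΔG cells after RA, ΔPG ES cells and the ΔPG interaction (1, 4, 1 and 3 at an unadjusted p under 0.05). Hoxb1 rose in ΔPG cells after RA (0.57), and in the ΔG interaction Rarb had a larger (0.63) and Crabp2 a smaller response (-0.53). The part of any of these marker lists in the keratin and cadherin results was not tested.

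Other genes followed the members closely across samples. Likeness was the root mean square log2 difference between gene and member after each was centred on its mean, over 12 samples in each table, and the larger of the values of both tables was used, among 11757 genes. It was read for the 6 members whose values span at least 1 log2 unit in both tables. Nearest to Krt8 were Flnc (0.22), Mest (0.22) and Prph (0.23), and nearest to Krt18 were Gas1 (0.20), Thsd4 (0.24) and Ecm1 (0.25). Krt19 had Cdc42ep1 (0.27), Lrp2 (0.32) and St3gal1 (0.32), and Cdh2 had Hs6st2 (0.19), Lrp2 (0.23) and Mex3b (0.24). Genes near Vim included Gfpt1 (0.11) and Carhsp1 (0.11), and Zeb2 had Dsc2 (0.19), Rarb (0.20) and Anxa1 (0.22). Among the members themselves, the nearest to Vim was Epcam (0.26) and the nearest to Krt19 was Cdh2 (0.31). Krt18 had Krt8 as its nearest member (0.64), whereas Krt8 was nearer to Krt19 (0.39). RA and ES samples are both among the 12, so a shared RA difference makes genes alike, and likeness within 1 treatment was not tested.

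The genes lie apart in the genome with 1 exception. In build NCBIM37, Krt8 (chromosome 15, 101827142 to 101834773, minus strand) and Krt18 (chromosome 15, 101858647 to 101862457, plus strand) are 23.9 kb apart and point away from each other. Krt19 is on chromosome 11 (100002124 to 100009979), Cdh1 on 8 (109127251 to 109194146), Cdh2 on 18 (16747386 to 16967755) and Epcam on 17 (88035319 to 88050446). Vim (13495554 to 13504453), Zeb2 (44839154 to 44972915) and Snai1 (167363695 to 167368314) are on chromosome 2. Zeb2 shares exonic sequence on its strand with AL929120.1, so reads there cannot be given to 1 of the genes alone.

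Promoters were read because Krt8 and Krt18 rose together while Epcam, also a gene of epithelial surfaces, was higher by less than 1 log2 unit in each RA comparison. The 250 bases before the start were taken from RefSeq on build GRCm38.p6, where 6 of the 9 members matched; Krt19, Cdh1 and Cdh2 are named only. Capitals mark an E-box of the kind bound by Snail and ZEB repressors (CAGGTG, or CACCTG on the other strand) and the half-site of retinoic acid receptors (AGGTCA, or TGACCT on the other strand). The Krt8 stretch is chr15:102004343-102004592 (minus strand), the Krt18 stretch chr15:102027966-102028215 (plus strand) and the Epcam stretch chr17:87635729-87635978 (plus strand), each written 5′ to 3′ along the gene.
Krt8: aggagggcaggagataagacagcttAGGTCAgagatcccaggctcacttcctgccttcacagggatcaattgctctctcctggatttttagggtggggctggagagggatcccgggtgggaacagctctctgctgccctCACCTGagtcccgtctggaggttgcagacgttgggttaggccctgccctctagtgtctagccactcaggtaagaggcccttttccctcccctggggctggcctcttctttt
Krt18: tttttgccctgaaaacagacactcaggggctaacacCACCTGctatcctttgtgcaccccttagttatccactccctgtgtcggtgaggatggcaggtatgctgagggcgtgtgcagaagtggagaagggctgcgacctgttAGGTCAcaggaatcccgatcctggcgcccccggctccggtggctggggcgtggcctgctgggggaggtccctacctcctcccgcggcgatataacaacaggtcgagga
Epcam: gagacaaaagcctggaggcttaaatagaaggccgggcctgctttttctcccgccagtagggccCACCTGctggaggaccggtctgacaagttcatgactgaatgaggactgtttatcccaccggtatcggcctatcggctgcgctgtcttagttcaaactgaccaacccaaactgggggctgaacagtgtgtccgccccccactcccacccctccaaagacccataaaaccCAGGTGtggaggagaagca

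The Krt8 promoter holds 1 E-box at -111 and 1 half-site at -225 from the start, the Krt18 promoter 1 E-box at -214 and 1 half-site at -108, and the Epcam promoter 2 E-boxes and 0 half-sites. Of all 32851 promoters of this length, 17.2% hold the E-box, 2.06% hold it at least 2 times and 14.0% hold the half-site. The Snai1 promoter has 1 E-box at -126. A TATA box (TATAAA on the gene's strand, in 7.59% of promoters) was found in the Vim promoter at -32, and the 4 entries of Zeb2 hold 0 of these motifs. A match describes the sequence and shows no binding.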

How the data were processed

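The authors mapped stranded total RNA reads to NCBI37/mm9 with TopHat2 2.1.0, removed duplicates with Picard, counted genes with HTSeq 0.6.0 (GENCODE vM1) and deposited DESeq2 1.14.1 rlog values, in log2 units, for 12 samples a table. Whether the rlog used the groups is not stated. All 12 samples of each table were used, and genes with 1 value in all samples were not tested. Each comparison was fitted with limma 3.58.1 in R 4.3.3 (lmFit, eBayes with trend) on its 6 samples, or 12 for interactions, and the procedure was tested on simulated data. Members and lists were chosen with earlier results of these data known. Of 206 listed genes 201 matched by symbol, 4 by an older RefSeq symbol and 1 did not. All members were named, with at most 3 called genes per list, comparison and direction, and up to 3 likeness genes per member. GC content came from annotated exons, and its trend was removed by lowess. Near-identical copies were sought with minimap2 2.31. Alternatives were other limits, a filter at mean rlog 3, quantile normalization, GC removal, 1 fit of 12 samples, no variance trend, a replicate block and each sample left out.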

Additional observations from a re-analysis of the deposited data

Results flagged for a closer look

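The RA response differed between ΔG genotypes, by a test of the difference itself, for Krt19 (1.28 on the log2 scale, homozygous minus heterozygous) and Zeb2 (0.51). Zeb2 (adjusted p 0.0915) lost its call in 10 of 12 fits with 1 sample left out, with the replicate block and under the stricter limits. After RA, the homozygous minus heterozygous log2 difference had opposite signs in the lines for 5 members, none of them called in either line. The share of all genes with opposite signs is not given here, so the 5 cannot be set against it. The 4 besides Zeb2 kept their genotypes apart in all RA samples of both lines. By line, so did 21.8% of all genes in ΔG and 18.8% in ΔPG cells. Zeb2 had 0.08 in ΔG and -0.12 in ΔPG cells, the latter turning to 0.02 without ΔPG homozygous RA replicate 1. The ΔPG values of Cdh1, Epcam and Snai1 also changed sign in fits with 1 sample left out. Krt8 had 0.31 in ΔG and -0.28 in ΔPG cells. Krt18 had 0.29 and -0.21. Krt19 had 0.46 and -0.44, and Vim had 0.0808 (adjusted p 0.173) and -0.31. The difference between the lines was not tested.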

How the results depend on the processing

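The RA comparisons had member counts that differed by at most 1.5 times under every alternative run (8 to 9, 7 to 8, 6 to 7 and 6 to 7 with 1 sample left out), and no called member changed sign under any. Over all 10 comparisons, member values that were not called changed sign 17 times in fits with 1 sample left out, some of them more than once. With the GC trend removed this happened 8 times, and under quantile normalization 3 times. Snai1 in ΔPG homozygous cells, under quantile normalization, was the only such change in an RA comparison. The rest were in genotype comparisons and interactions. The member counts of the genotype comparisons and interactions moved further, and the cause was not tested. Where the adjusted p (0.1) alone decided, members called went from 2 to 4 in ΔG ES, 0 to 6 in ΔG RA, 2 to 5 in the ΔG interaction, 0 to 3 in ΔPG ES, 0 to 4 in ΔPG RA and 0 to 2 in the ΔPG interaction. Over all genes the same change was 217 to 1152, 471 to 2433, 524 to 1164, 2893 to 7926, 186 to 1006 and 3056 to 6387. With adjusted p under 0.05 and a fold over 1.5, ΔG ES gave 1 (all genes 117) and the ΔG interaction 1 (all genes 268). ΔG ES gave 1 under quantile normalization (all genes 148) and 1 without a variance trend (all genes 191). With replicate number as a block, ΔG ES gave 0 (all genes 44) and the ΔG interaction 1 (all genes 519). Residuals of samples that share a number were weakly correlated (18 pairs a table, r from -0.033 to 0.010 in ΔG and -0.026 to 0.085 in ΔPG). The 36 other pairs had r from -0.035 to 0.047 and from -0.072 to 0.039. Between ΔPG heterozygous and homozygous ES samples, same-numbered pairs had 0.085, 0.010 and 0.049, and other pairs -0.072 to 0.016. Such weak values do not show pairing by number, and they cannot show its absence. With the GC trend removed the ΔPG interaction gave 3. Leaving out 1 sample gave 1 to 2 in ΔG ES, 1 to 2 in the ΔG interaction and 0 to 1 in the ΔPG interaction. The GC trend was removed among genes with mean rlog at least 3. Among these, calls went from 2784 to 883 in ΔPG ES and from 2976 to 1117 in the ΔPG interaction. Among single member values, calls were lost in 15 fits with 1 sample left out, 3 under quantile normalization, 3 with the block, 2 under the stricter limits and 1 without the trend. ΔPG homozygous RA replicate 1 correlates less with its group (0.862) than replicates 2 and 3 (0.909 each). Without it, RA minus ES went from 6 to 7 members (all genes 6116 to 6181) and RA homozygous minus heterozygous from 0 to 0 (186 to 178). Depth is unknown.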
